A study of Mus musculus with 2 samples.

Results

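The miR-15/16 family is a group of microRNAs (miRNAs) that share the start of their guide sequence and come from 4 loci with a pair of genes each. Its 8 genes, Mir15a, Mir16-1, Mir15b, Mir16-2, Mir195a, Mir497, Mir322 and Mir503, were taken by their symbol in the GENCODE M21 annotation from the 2202 miRNA genes of the deposited tables, and all 8 were found there. They were measured by miRNA sequencing in hippocampus of wild-type adult male mice (C57BL/6, strain B6NCrl) at 6 months of age, with no treatment named. The labels speak of a layer of hippocampus without naming the layer, and their sex field reads as not collected. The samples form 1 group of 2 libraries, numbered biological replicates 2 and 1, which have different biosample entries but the same donor identifier. Whether separate animals were used is not stated, the difference between replicates 2 and 1 may thus be technical, and no conditions were compared.

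A miRNA is cut from a hairpin in a longer transcript and guides the Argonaute protein to messenger RNAs that pair with its seed, the bases at positions 2 to 8 counted from the 5′ end. Members of the miR-15/16 family are known for repressing genes of the cell cycle and of cell survival, such as the cyclin gene Ccnd1 and the anti-apoptotic gene Bcl2. In humans, loss of the MIR15A and MIR16-1 locus is a frequent lesion of chronic lymphocytic leukaemia. In the mouse heart miR-195 rises after birth as cardiac muscle cells leave the cell cycle. Adult hippocampus consists mostly of cells that no longer divide, and family members have been studied in brain as regulators of the Alzheimer disease genes App and Bace1.

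The mature sequences come first because they define the family and because they set which reads can be told apart. RefSeq (GRCm38.p6) held mature sequences for all 8 genes, 16 entries in all. The 5p arms, written 5′ to 3′ with the seed in capitals, were as follows.
miR-15a-5p: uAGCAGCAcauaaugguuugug
miR-15b-5p: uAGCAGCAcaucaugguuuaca
miR-16-5p: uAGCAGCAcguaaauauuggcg
miR-195a-5p: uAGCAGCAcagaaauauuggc
miR-497a-5p: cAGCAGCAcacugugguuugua
miR-322-5p: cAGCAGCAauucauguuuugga
miR-503-5p: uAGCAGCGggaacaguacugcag

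The seed AGCAGCA stood in 7 of the 8 genes and AGCAGCG, with another last base, in Mir503 alone. The seed AGCAGCA occurred in 11 genes of the RefSeq collection: the 7 members and Mir195b, Mir6342, Mir6353 and Mir6419. Those 4 other genes had 0 counts in both libraries, which allows each a level of up to 0.595 in counts-per-million units (CPM) in replicate 2 and 0.706 CPM in replicate 1 for reads aligned to 1 place. Mir195b is listed on chromosome 2, away from Mir195a. After base 8 the 5p arms diverged. miR-15a-5p and miR-15b-5p differed at 4 of 22 bases, and miR-16-5p and miR-195a-5p, from different loci, differed at only 2 of 21. miR-195a-5p and miR-497a-5p, from the same locus, differed at 9 of 21 bases, 8 of them after base 8.

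miR-16-5p is encoded by both Mir16-1 and Mir16-2. The hairpins of these genes are shown with the stretch common to both in capitals. In mm10, the build of all positions given here, Mir16-1 lies at chr14:61631880-61631972 on the minus strand and Mir16-2 lies at chr3:69009902-69009996 on the plus strand.
Mir16-1: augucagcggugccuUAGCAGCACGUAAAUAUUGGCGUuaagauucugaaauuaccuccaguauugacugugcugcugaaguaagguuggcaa
Mir16-2: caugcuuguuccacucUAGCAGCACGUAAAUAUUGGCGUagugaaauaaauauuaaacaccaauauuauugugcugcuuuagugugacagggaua
The common stretch was 23 bases long, 1 base longer than the mature miRNA, which is 22 bases. A read of miR-16-5p within that stretch therefore has a match in both hairpins. Reads with several placements have a summary row of their own and were taken as left out of the genes' counts. Outside that stretch the arms differ. The 3p arms are distinct, miR-16-1-3p with the seed CAGUAUU and miR-16-2-3p with the seed CCAAUAU, each held by 1 annotated hairpin:
miR-16-1-3p: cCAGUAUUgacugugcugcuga
miR-16-2-3p: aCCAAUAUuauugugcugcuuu
Of the windows of 20 bases in the Mir16-1 and Mir16-2 hairpins, 4 in each were also found in the other, and no window of the other 6 members' hairpins was found in another annotated hairpin that does not overlap it. The counts of Mir16-1 and Mir16-2 thus cover the part of their reads that could be placed at 1 locus, and the amount of miR-16-5p in this tissue was not measured by them. The counts are per hairpin, and arms were not separated.

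Replicate 2 held 12627039 reads, of which 5041568 (39.9%) were counted on the strand of a miRNA gene, and replicate 1 held 11106392 reads, of which 4247092 (38.2%) were counted. Reads aligned to more than 1 place made up 45.7% of replicate 2 and 43.8% of replicate 1. Levels are in CPM of the counted reads. Every interval given is an exact Clopper-Pearson one at 95% and holds counting error alone, as no molecular identifiers are named. As a check of the tissue label, 6 of 9 neuronal miRNA genes reached 10 CPM in both libraries, and the list summed to 30715 CPM in replicate 2 against 48371 CPM in replicate 1. Most of that difference lay in Mir132, with 14605 CPM in replicate 2 against 32072 CPM in replicate 1. Mir128-1 and Mir128-2 were also lower in replicate 2 (log2 ratios −0.12 and −0.13). Mir138-1, Mir138-2 and Mir137 were higher in replicate 2 (log2 ratios 0.05, 0.10 and 0.12). The 3 genes of the neuronal miRNA miR-124, which share a mature sequence, stayed below 2 CPM in reads aligned to 1 place.

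The family held 0.426% of counted reads in replicate 2 (21456 counts, interval 0.420 to 0.431%) and 0.245% in replicate 1 (10421 counts, interval 0.241 to 0.250%), a mean of 0.335% ± 0.127 (SD, n = 2). Of its 8 genes, 7 reached 10 CPM in both libraries, a level reached by 13.7% of all 2202 miRNA genes. The genes spanned a wide range, with means from 1276 CPM for Mir195a to 10.5 CPM for Mir503. The 7 genes with the seed AGCAGCA made up 99.7% of the family's counts in replicate 2 and 99.6% in replicate 1.

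**Figure D1:**
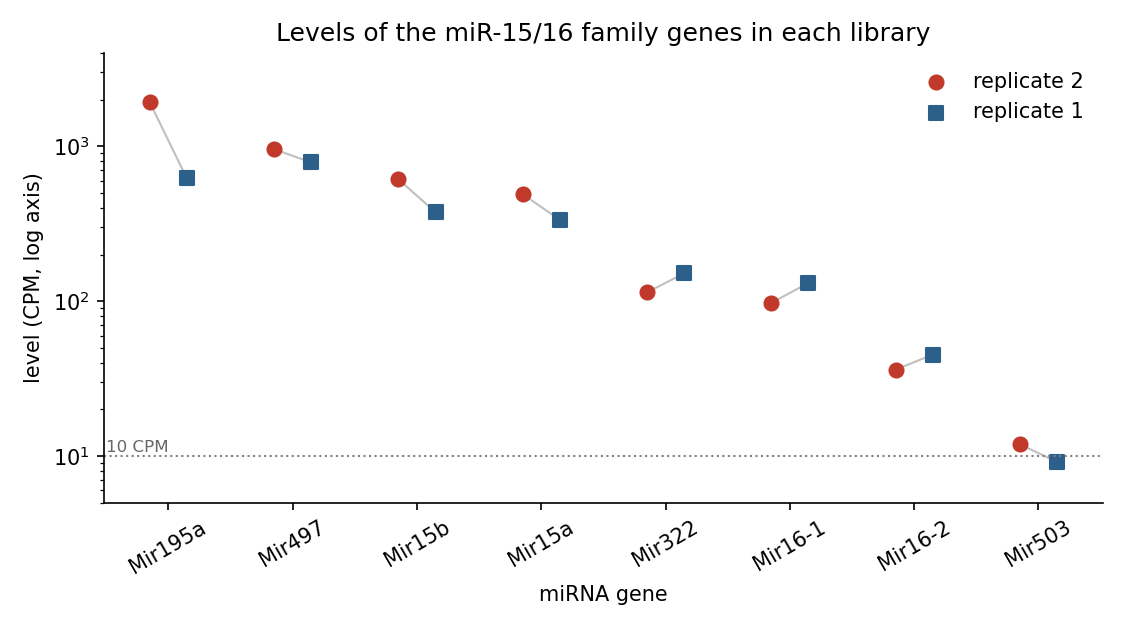
Level of each family gene (CPM, log axis) in replicate 2 (circles) and replicate 1 (squares), ordered by mean level, with a dotted line at 10 CPM. Mir195a stood at 1933 CPM in replicate 2 against 620 CPM in replicate 1, and Mir503 lay at the dotted line with 11.9 CPM in replicate 2 against 9.18 CPM in replicate 1.

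By counted reads, Mir195a and Mir497 form the leading locus. They lie on the plus strand of chromosome 11 with 241 bases between their hairpins, and Mir195a (ENSMUSG00000065411.2, 70235042 to 70235135) overlaps no other annotated gene. Mir195a had 9746 counts in replicate 2 and 2632 counts in replicate 1, which is 1933 CPM in replicate 2 against 620 CPM in replicate 1 (mean 1276 ± 929 CPM, SD, n = 2). It ranked 63rd of all miRNA genes in replicate 2 and 115th in replicate 1. Mir497 (ENSMUSG00000105220.1, 70234717 to 70234800) gave 4828 counts in replicate 2 against 3343 in replicate 1, which is 958 CPM in replicate 2 against 787 CPM in replicate 1 (872 ± 121 CPM, SD, n = 2), and held rank 94 in replicate 2 and rank 99 in replicate 1. The locus supplied 67.9% of the family's counts in replicate 2 and 57.3% in replicate 1. Counts of Mir16-1 and Mir16-2 lack reads that match both hairpins, so the order of the loci in full amount was not measured.

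Mir497 lies inside Mir497b, a miRNA gene annotated on the opposite strand. Mir497b had 0 counts on its own strand in both libraries. The column of counts on the opposite strand gave Mir497b 4828 counts in replicate 2 and 3343 in replicate 1, exactly the counts of Mir497. In the column made without regard to strand, Mir497 had 0 counts in both libraries, while the other 7 members kept the same counts. The level of Mir497 can therefore be read only from the stranded column.

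Mir15b and Mir16-2 lie 66 bases apart on the plus strand of chromosome 3, both in introns of Smc4, which encodes a subunit of the condensin complexes that compact chromosomes for division. Mir15b (ENSMUSG00000065580.2, 69009772 to 69009835) gave 3096 counts in replicate 2 against 1594 in replicate 1, or 614 CPM in replicate 2 against 375 CPM in replicate 1 (495 ± 169 CPM, SD, n = 2). Mir16-2 (ENSMUSG00000065606.1, 69009902 to 69009996) gave 182 counts in replicate 2 against 192 in replicate 1, or 36.1 CPM in replicate 2 against 45.2 CPM in replicate 1 (40.7 ± 6.44 CPM). Mir15b was the third gene of the family by counted level, and Mir16-2 the seventh.

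Mir15a and Mir16-1 lie 54 bases apart on the minus strand of chromosome 14 within Dleu2, a long noncoding gene. Mir15a lies in an intron, and Mir16-1 overlaps 1 annotated Dleu2 exon. Mir15a (ENSMUSG00000093007.1, 61632027 to 61632110) gave 2479 counts in replicate 2 against 1421 in replicate 1, or 492 CPM in replicate 2 against 335 CPM in replicate 1 (413 ± 111 CPM, SD, n = 2). Mir16-1 (ENSMUSG00000092995.1, 61631880 to 61631972) gave 491 counts in replicate 2 against 557 in replicate 1, or 97.4 CPM in replicate 2 against 131 CPM in replicate 1 (114 ± 23.9 CPM). The locus in Dleu2 summed to 589 CPM in replicate 2 against 466 CPM in replicate 1, and the locus in Smc4 to 650.2 CPM in replicate 2 against 421 CPM in replicate 1. Their order was not the same in both libraries.

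Mir322 and Mir503 lie 200 bases apart on the minus strand of chromosome X and overlap no other annotated gene. In mouse muscle precursor cells these miRNAs are known for promoting exit from the cell cycle, and the human counterpart of Mir322 is MIR424. Mir322 (ENSMUSG00000065418.1, 53054255 to 53054349) gave 574 counts in replicate 2 against 643 in replicate 1, or 114 CPM in replicate 2 against 151 CPM in replicate 1 (133 ± 26.5 CPM, SD, n = 2). Mir503 (ENSMUSG00000076122.1, 53053984 to 53054054) gave 60 counts in replicate 2 against 39 in replicate 1, or 11.9 CPM in replicate 2 against 9.18 CPM in replicate 1 (10.5 ± 1.92 CPM). It was the only member below 10 CPM, and only in replicate 1.

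The same X-linked cluster holds 5 further miRNA genes on the same strand. Mir351, 901 bases from Mir322, had the highest counted level of the cluster, with 172 CPM in replicate 2 against 221 CPM in replicate 1, and was lower in replicate 2 (log2 ratio −0.36, adjusted p = 3.8e-07, exact binomial test). It carries the seed CCCUGAG, which it shares with the miR-125 family, and not that of its neighbours. Mir542 was measured at 21.6 CPM in replicate 2 against 21.4 CPM in replicate 1. Mir450b had 8 counts in replicate 2 and 13 in replicate 1. Mir450-1 had 0 counts in both libraries, and Mir450-2 had 0 in replicate 2 and 3 in replicate 1. Those last 2 genes share the mature sequence of miR-450a-5p, which 2 annotated hairpins hold. Level thus differed widely within the cluster, and the family pair was neither its highest nor its lowest part.

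Ordered by mean counted level the genes ran Mir195a, Mir497, Mir15b, Mir15a, Mir322, Mir16-1, Mir16-2 and Mir503. Scaled per 100 bases of annotated hairpin, whose lengths ran from 64 bases for Mir15b to 95 bases for Mir322 and Mir16-2, the order was the same for all 8. In 3 of the 7 neighbouring pairs of this order the ranges over the libraries overlapped: Mir195a with Mir497, Mir15b with Mir15a, and Mir322 with Mir16-1. The ranges of the other 4 pairs were apart. Compared within each library, Mir15b lay above Mir15a and Mir322 above Mir16-1 in both, while Mir195a and Mir497 differed in opposite directions. Within each library 6 genes kept the same place, and only Mir195a and Mir497 exchanged places.

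**Figure D2:**
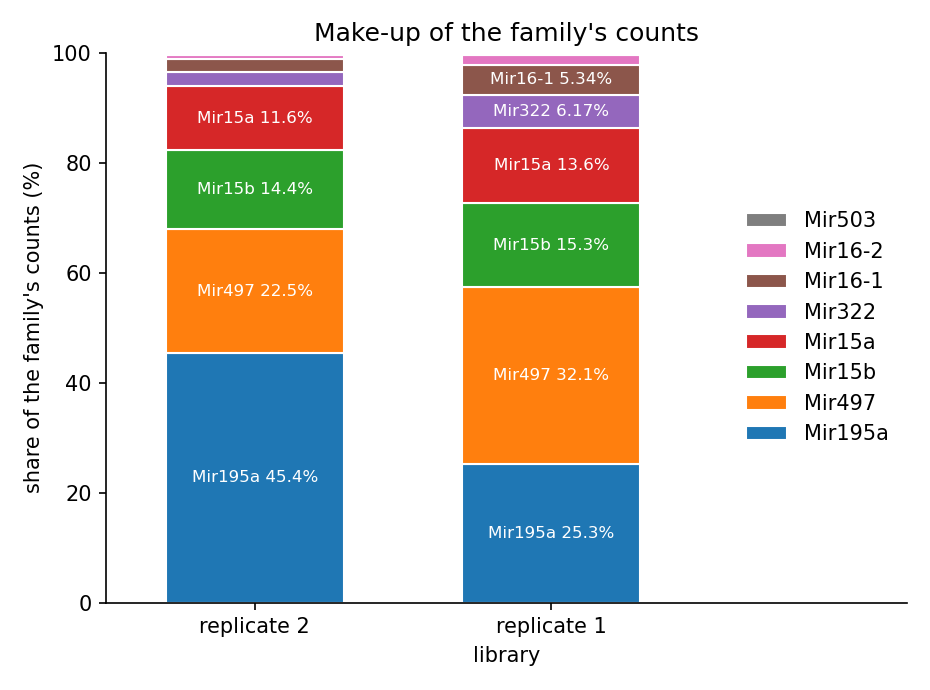
Share of the family's counts (%) held by each gene in replicate 2 and replicate 1, stacked from the gene with the highest mean level at the bottom. Mir195a made up 45.4% of the family's counts in replicate 2 and 25.3% in replicate 1.

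The make-up of the family differed between the libraries most in Mir195a. It held 45.4% of the family's counts in replicate 2 (interval 44.8 to 46.1%) and 25.3% in replicate 1 (interval 24.4 to 26.1%). Mir497 held 22.5% in replicate 2 (interval 21.9 to 23.1%) and 32.1% in replicate 1 (interval 31.2 to 33.0%). Mir15b held 14.4% in replicate 2 and 15.3% in replicate 1. Without Mir195a the family held 0.232% of counted reads in replicate 2 and 0.183% in replicate 1, a ratio of 1.27 against 1.73 with it.

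For each gene, the part of its summed count that came from replicate 2 was set against the library totals by an exact binomial test (two-sided), with Benjamini-Hochberg adjustment over the 522 genes whose sum reached 10. The test compares the reads of 2 libraries of 1 group and not conditions. At an adjusted p of 0.05, 51.0% of the 522 genes differed: 28.2% of the 522 were higher and 22.8% lower in replicate 2. Of the family, all 8 genes could be tested and 6 differed, 4 higher and 2 lower in replicate 2. With the minimum sum set at 100, 240 of 311 genes and 7 of 7 members tested differed. The median log2 ratio of the 8 members, replicate 2 over replicate 1, was 0.33, beside 0.09 over all genes tested.

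**Figure D3:**
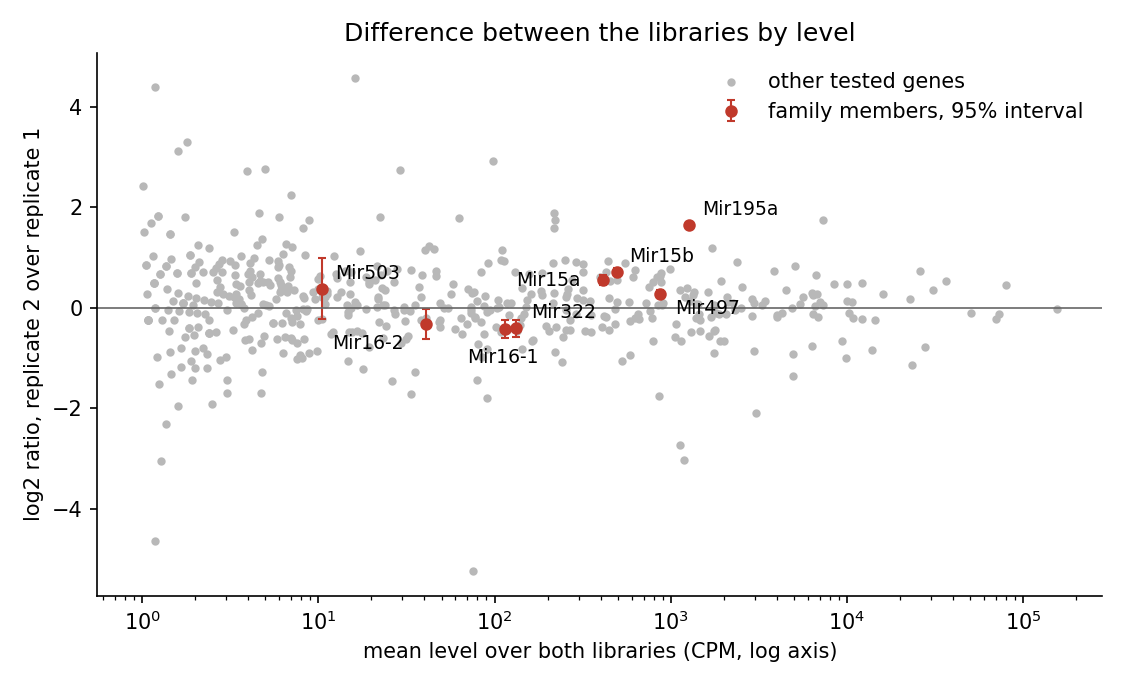
Log2 ratio of replicate 2 over replicate 1 against the mean level (CPM, log axis) for the 522 tested genes, with family members in red and bars for exact 95% intervals (counting error only). Mir195a lies at 1.64, and the other members lie between −0.43 and 0.71.

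Mir195a was 3.12-fold higher in replicate 2 (log2 ratio 1.64, interval 1.58 to 1.70) and passed the test. Among the 276 genes whose mean count reached 100, the median size of the log2 ratio in either direction was 0.36, 10.5% exceeded 1, and Mir195a ranked 15th by size. Its difference was therefore large for these libraries but not outside their range. Mir15b was 1.64-fold higher in replicate 2 (log2 ratio 0.71, interval 0.62 to 0.80) and Mir15a 1.47-fold higher (0.56, interval 0.46 to 0.65). Mir497 was 1.22-fold higher (0.28, interval 0.22 to 0.35), less than the median size of that set of genes. Mir15b, Mir15a and Mir497 had adjusted p-values of 5.6e-59, 4.5e-31 and 8.7e-18 by the exact binomial test.

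Mir16-1 and Mir322 were lower in replicate 2. Mir16-1 had a log2 ratio of −0.43 (interval −0.61 to −0.25, adjusted p = 4.5e-06 by the exact binomial test) and Mir322 one of −0.41 (interval −0.58 to −0.25, adjusted p = 2.2e-06 by the same exact test). Mir16-2, with a log2 ratio of −0.32 (interval −0.63 to −0.02), did not pass (adjusted p = 0.063, exact binomial test), and neither did Mir503 at 0.37 (interval −0.23 to 0.99, adjusted p = 0.33, exact binomial test). Mir16-2 passed under TMM scaling (adjusted p = 0.020) and DESeq2 size factors (adjusted p = 0.018) in the same exact test, as lower in replicate 2. Mir503 rests on 60 counts in replicate 2 and 39 in replicate 1, and its interval spans differences in both directions.

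**Figure D4:**
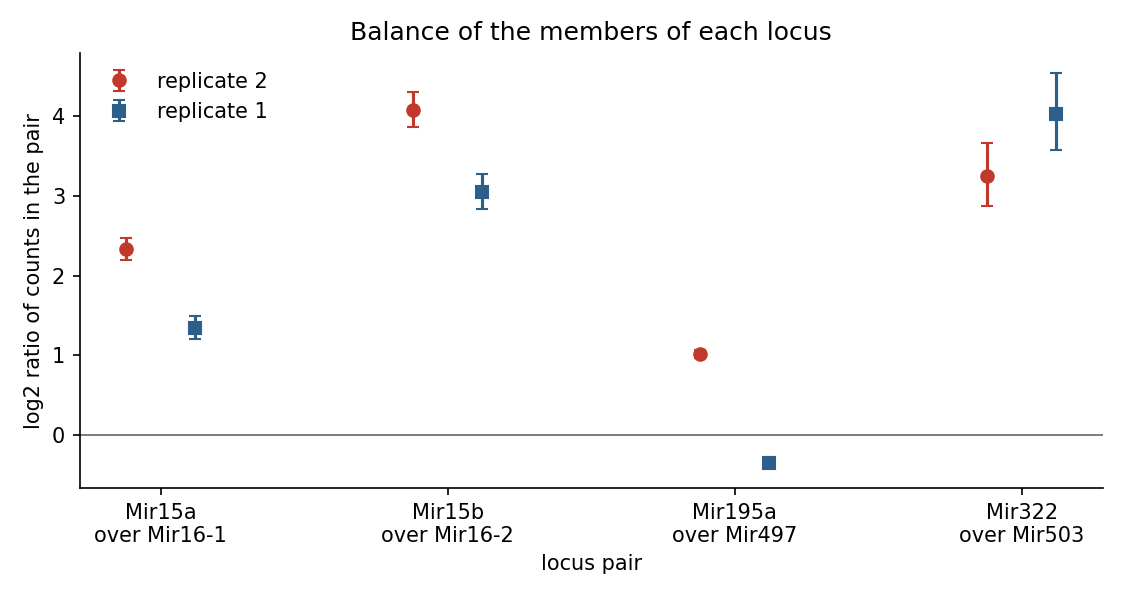
Log2 ratio of the counts of the genes in each locus pair, in replicate 2 (circles) and replicate 1 (squares), with bars for exact 95% intervals (counting error only). The intervals of the libraries are apart at 3 loci and overlap for Mir322 over Mir503, and Mir195a over Mir497 lies above 0 in replicate 2 (1.01) and below 0 in replicate 1 (−0.34).

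The genes of a pair are thought to be cut from a shared transcript, so the balance within each locus was compared across the libraries. Mir15a had 5.05 times the count of Mir16-1 in replicate 2 (interval 4.58 to 5.57) and 2.55 times in replicate 1 (interval 2.31 to 2.82). Mir15b had 17.0 times the count of Mir16-2 in replicate 2 (interval 14.6 to 19.9) and 8.30 times in replicate 1 (interval 7.14 to 9.69). At both loci the balance lay further from the miR-16 gene in replicate 2, by 0.98 and 1.03 on the log2 scale. Reads of miR-16-5p that match both of its hairpins are missing from these ratios in both libraries.

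Mir195a had 2.02 times the count of Mir497 in replicate 2 (interval 1.95 to 2.09) and 0.787 times in replicate 1 (interval 0.748 to 0.829), so the leading gene of the locus was not the same in both. Mir322 had 9.57 times the count of Mir503 in replicate 2 (interval 7.32 to 12.7) and 16.5 times in replicate 1 (interval 11.9 to 23.4), and these intervals overlap. No test over samples was run for these balances, since the exact sign permutation test over 2 libraries cannot give a two-sided p below 0.5.

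Other quantities also moved between the libraries, and their part in the family's differences was not tested. The labels cite different versions of the adapter-trimming protocol for the libraries. Markers of smooth muscle (Mir143 and Mir145a, both at 10 CPM or more in both libraries) summed to 1742 CPM in replicate 2 against 2750 CPM in replicate 1, and the endothelial gene Mir126a stood at 7027 CPM in replicate 2 against 5706 CPM in replicate 1. Choroid plexus and ependyma genes (4 of 4 at 10 CPM or more) summed to 3144 CPM in replicate 2 against 9219 CPM in replicate 1. Mir204 made up most of that sum, with 2780 CPM in replicate 2 against 7102 CPM in replicate 1, and Mir449a went the other way, with 28.0 CPM in replicate 2 against 17.7 CPM in replicate 1. The oligodendrocyte genes (2 of 2) summed to 8777 CPM in replicate 2 against 5805 CPM in replicate 1. The leukocyte and microglia genes (3 of 5) summed to 2627 CPM in replicate 2 against 2926 CPM in replicate 1. Erythroid genes (1 of 3) summed to 23.8 CPM in replicate 2 against 18.8 CPM in replicate 1. Of these, Mir451a went the other way, with 6.94 CPM in replicate 2 against 8.71 CPM in replicate 1. Muscle genes (1 of 4, with Mir133a-1 at 0 counts) summed to 47.4 CPM in replicate 2 against 120 CPM in replicate 1. Mir206 made up most of that muscle sum, and Mir499 went the other way, with 4.76 CPM in replicate 2 against 3.30 CPM in replicate 1. In bulk tissue, a different share of a cell type and a different amount of RNA per cell cannot be told apart.

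The Mir103 and Mir107 genes are often grouped with the family, since their 3p arms start with the bases AGCAGCA, which there lie a base earlier. They are shown with the seed in capitals.
miR-103-3p: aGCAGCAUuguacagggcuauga
miR-107-3p: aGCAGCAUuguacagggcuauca
Mir107 gave 2092 CPM in replicate 2 against 3806 CPM in replicate 1. Mir103-2 gave 24.6 CPM in replicate 2 against 37.9 CPM in replicate 1, and Mir103-1 gave 3.57 CPM in replicate 2 against 5.89 CPM in replicate 1. The 3 genes together held 0.212% of counted reads in replicate 2 and 0.385% in replicate 1. In counted reads the miR-15/16 family was thus the larger group in replicate 2 and the smaller in replicate 1. Both sums lack reads that match several hairpins, so which group is larger in full amount was not measured. Mir107 and Mir103-2 were lower in replicate 2 by the exact binomial test, with log2 ratios of −0.86 (interval −0.90 to −0.83) and −0.62 (interval −0.97 to −0.28), and Mir103-1 did not pass at −0.71 (interval −1.68 to 0.21). Both Mir103 genes encode miR-103-3p, so their counts lack reads that match both.

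The genes closest to Mir195a by level in both libraries, measured as the distance between log2(CPM + 1) values over 2 libraries, were Mir346 (distance 0.67), Mir423 (0.80) and Mir1843b (0.84). Their levels were 1258 CPM in replicate 2 against 734 CPM in replicate 1 for Mir346, 2372 CPM in replicate 2 against 1038 CPM in replicate 1 for Mir423, and 1087 CPM in replicate 2 against 674 CPM in replicate 1 for Mir1843b. All 3 were higher in replicate 2, which follows in large part from their choice by closeness to Mir195a in both libraries. None belongs to the family.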

How the data were processed

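Small RNA libraries were deposited as 1 table of raw read counts per miRNA gene and library, which the authors did not normalise. Per the file headers the assembly is mm10 and the annotation GENCODE M21. Which aligner and counter made them is not given here by any label or header. Each table has 3 count columns, read from their totals as unstranded, sense and antisense, and the sense column was used. The 4 summary rows stayed out of library sizes and tests. They held 11.4% of reads as unaligned and 3.005% as placed outside miRNA genes in replicate 2, and 15.1% and 2.92% in replicate 1.

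CPM was computed over all 2202 gene rows, which all matched M21 by identifier. For log2 ratios of replicate 2 over replicate 1, 0.5 was added to each count. edgeR's quasi-likelihood test could not be fitted to 1 library against 1. The biological coefficient of variation was 0.329 over 422 genes (edgeR, intercept-only design). The binomial test was tested on simulated data that held counting error only, without the variation between libraries that this coefficient describes. Named genes were the members, Mir195b and Mir497b, the cluster and Mir103 and Mir107 genes, genes sharing bases 2 to 7, and the 3 genes closest to the leading member. Members, lists and rules were chosen with earlier results of these data known. Alternatives were the strand column, denominator, scaling, count minimum, added count, hairpin length, members and each replicate left out. Python 3.11.15, numpy 2.4.6, pandas 2.3.3, scipy 1.17.1, matplotlib 3.10.9, R 4.3.3, edgeR 4.0.16 and DESeq2 1.42.0 were used.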

Additional observations from a re-analysis of the deposited data

How the results depend on the processing

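The counts of members detected and of members differing between the libraries stayed within 1.5 times of their values under every alternative run. The number detected ran from 5 at 100 CPM to 8 at 1 CPM. The share of all 2202 miRNA genes detected was worked out at 10 CPM only (13.7%). In the column without strand 5 of 7 members tested differed, beside 255 of 496 genes. The number was 7 of 8 under TMM scaling (258 of 522 genes) and under DESeq2 size factors (257 of 522 genes). At a minimum sum of 100 it was 7 of 7, beside 240 of 311 genes. Over all genes, TMM scaling gave 124 genes higher and 134 lower in replicate 2, against 147 and 119 with plain totals. Of 46 values of members' log2 ratios under other settings, 43 kept their direction and their side of the threshold. The other 3 were those of Mir16-2, which then passed. Part of this agreement was fixed in advance. With 1 count added the adjusted p was carried over, so the side of the threshold could not change. A changed count minimum leaves the log2 ratio as it is, so the direction could not change. The family's mean share of 0.335% was 0.132% when taken of all reads, and 0.208% without Mir195a, an alternative chosen after seeing the data. It ran from 0.245 to 0.426% with 1 replicate left out, and Mir195a's share of the family's counts from 25.3 to 45.4%. The mean log2 ratio of Mir195a over Mir497 was 0.33 and reached 13.3 in the column without strand, where Mir497 has 0 counts, and it ran from −0.34 to 1.01 with 1 replicate left out. The same range was 1.35 to 2.33 for Mir15a over Mir16-1, 3.05 to 4.08 for Mir15b over Mir16-2 and 3.25 to 4.03 for Mir322 over Mir503. No paired analysis was possible because the libraries form 1 group. Reads of miR-16-5p that match both of its hairpins limit what these counts show of it.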
